A study of Mus musculus with 2 samples.

Results

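The proteasome genes described here are the protein-coding genes of the mouse genome whose symbol begins with Psma, Psmb, Psmc, Psmd, Psme, Psmf or Psmg. The rule found 50 genes among 21938 protein-coding genes on the nuclear chromosomes of the GENCODE M21 annotation (mm10), and it used no measured value. The measurements were Etv4 and Etv5 binding regions found by ChIP-seq in EpRas cells, an H-Ras-transformed derivative of the EpH4 mouse mammary gland epithelial line. The cells were grown in 4% serum and exposed to TGF-β3 at 1 ng/ml for 1.5 h, and both groups shared this genotype and treatment and differed in the antibody, a rabbit polyclonal antibody to Etv4 or a mouse monoclonal antibody to Etv5. There was 1 library per antibody, no input or untreated library was analysed here, and so no difference has a replicate check and no test was made. The lists held 13636 Etv4 and 8297 Etv5 regions, with medians of 589 and 532 bp in length. They give no read counts and a score of 1000 in every row, so depth and binding strength are unknown and a missing region says only that none was listed. Binding regions do not show which genes the cells transcribe, so the labelled cell type could not be checked against its markers.

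The proteasome degrades proteins tagged with ubiquitin. Its 20S core is a barrel of alpha rings, which gate the entrance, and beta rings, which hold the proteolytic sites, and the 19S regulatory particle caps it with a base, whose ATPases unfold substrates, and a lid, which removes ubiquitin. Assembly chaperones, alternative activator caps and the beta subunits of the immunoproteasome, which favour peptides for antigen presentation, complete the family. Etv4 and Etv5 belong to the ETS family of transcription factors, which bind DNA around a GGAA core. By known role the symbols fell into 8 genes of the alpha ring, including the testis subunit Psma8, 7 of the constitutive beta ring, 4 of the immunoproteasome and thymoproteasome, 9 of the 19S base, 8 of the lid, 7 assembly chaperones and 6 activators or inhibitors. The remaining member, Psmc3ip, matched the rule by name only: it encodes a meiotic recombination protein, not a proteasome subunit.

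The sequences that carry the results below are those with an ETS pattern, because they show where binding regions and patterns met and where they did not. The pattern searched was CCGGAAGT or CAGGAAGT on either strand, and it is printed in capitals. Inside Etv4 regions near member starts it occurred in 4 regions, at Psma6, Psmb7, Psmc2 and Psmd12, each time as CCGGAAGT or its reverse complement. These 30-base stretches are from the mm10 genome, 5′ to 3′ along the gene.
Psma6, chr12:55398830-55398859, plus strand: cagtagccataACTTCCGGgagggggcttg
Psmb7, chr2:38643947-38643976, minus strand: ctctcgcggcgCCGGAAGTgctaagttctt
Psmc2, chr5:21786711-21786740, plus strand: ggcgcggagctACTTCCGGtggggaagaga
Psmd12, chr11:107479499-107479528, plus strand: atgagcgggcgACTTCCGGtgcgagtgacg

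In the promoter window, which ran from 250 bases before to 50 after the representative start of each gene, 9 members held the pattern: Psma1, Psma8, Psmc1, Psmc2, Psmd6, Psmd12, Psme3, Psme4 and Psmg3. Stretches around the start are printed for 7 of them, and the Psmd12 site is printed above. At Psmc2 the stretch lies upstream of the start and differs from the Psmc2 site above, which is within the gene.
Psma1, chr7:114276099-114276178, minus strand: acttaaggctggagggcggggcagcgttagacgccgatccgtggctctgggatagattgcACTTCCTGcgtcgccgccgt
Psmc1, chr12:100110094-100110180, plus strand: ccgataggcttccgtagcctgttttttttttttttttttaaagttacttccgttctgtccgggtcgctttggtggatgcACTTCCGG
Psmc2, chr5:21785163-21785242, plus strand: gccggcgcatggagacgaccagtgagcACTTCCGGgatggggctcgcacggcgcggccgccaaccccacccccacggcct
Psmd6, chr14:14120965-14121044, minus strand: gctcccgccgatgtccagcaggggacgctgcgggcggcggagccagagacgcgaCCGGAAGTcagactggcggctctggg
Psme3, chr11:101316153-101316232, plus strand: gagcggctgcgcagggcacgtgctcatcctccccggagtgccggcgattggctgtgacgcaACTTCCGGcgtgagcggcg
Psme4, chr11:30771666-30771745, plus strand: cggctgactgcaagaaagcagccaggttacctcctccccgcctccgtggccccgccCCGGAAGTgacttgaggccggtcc
Psmg3, chr5:139826866-139826945, minus strand: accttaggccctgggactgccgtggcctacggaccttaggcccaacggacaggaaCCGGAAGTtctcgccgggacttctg

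Regions of both lists near a start were found at Psmb6 and Psmg1 only among the members, and the 150 bases before the start of each are printed for that reason. The Psmb6 stretch held a match to TGACNNNGC, the antioxidant response element (ARE) bound by Nrf-family factors, shown in capitals, and neither stretch held the ETS pattern.
Psmb6, chr11:70525236-70525385, plus strand: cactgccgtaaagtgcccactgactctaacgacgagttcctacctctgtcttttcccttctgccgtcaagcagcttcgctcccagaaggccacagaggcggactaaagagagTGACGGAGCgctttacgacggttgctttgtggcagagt
Psmg1, chr16:95990961-95991110, minus strand: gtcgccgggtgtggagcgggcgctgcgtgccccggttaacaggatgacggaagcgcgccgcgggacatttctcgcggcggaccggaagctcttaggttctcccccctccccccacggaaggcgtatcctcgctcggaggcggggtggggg

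An Etv4 region had its midpoint within 2 kb of an annotated start in 15 of the 50 members (30%, exact 95% binomial interval 17.9 to 44.6%). The share over all protein-coding genes was 17.9%. For Etv5 it was 4 members (8%, 2.22 to 19.2%) against 10.6% of all genes. The ratio of the member share to that of all genes was 1.68 for Etv4 (1.00 to 2.49) and 0.756 for Etv5 (0.21 to 1.82). These intervals cover counting error only and treat genes as independent. Regions of both lists were near the start in 2 members (4%) against 6.46% of all genes, Etv4 regions alone in 13 (26%) against 11.4%, and Etv5 regions alone in 2 (4%) against 4.12%. An Etv4 region in the gene body without another near a start was seen in 1 member (2%) against 6.77% of genes, and the corresponding Etv5 count was also 1 against 5.83%. No region of either list lay near a start or in the body of 32 members (64%), compared with 70.6% of all genes.

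Promoters rich in CpG were the more frequent sites of Etv4 regions, and the members had more such promoters than the average gene. Of 50 members 24 (48%) had a GC content of at least 55% and an observed-to-expected CpG ratio of at least 0.65 in the 1000 bases around the start, against 36.5% of all genes. An Etv4 region was near the start of 30.3% of the 7998 CpG-rich genes and 10.8% of the 13940 others. Among the CpG-rich members it was 9 of 24 (37.5%, 18.8 to 59.4%), and among the others 6 of 26 (23.1%, 8.97 to 43.6%). The member share was thus the higher of the pair in both classes, with the share of all genes inside its interval in both. Etv5 regions were near 17.2% of the CpG-rich genes and 6.79% of the others, and near 2 of the 24 CpG-rich members (8.33%, 1.03 to 27%) and 2 of the 26 others (7.69%, 0.946 to 25.1%). Promoter composition moved with the Etv4 share over all genes, and its part in the member count was not tested.

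**Figure D1:**
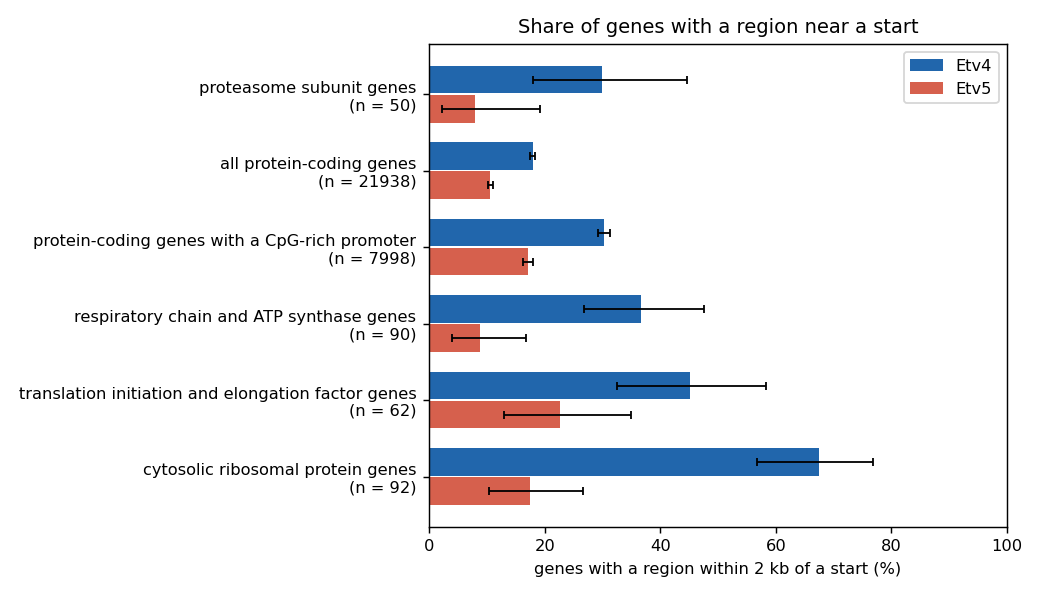
Bars give the percent of genes with an Etv4 (blue) or Etv5 (red) region within 2 kb of a start, with exact 95% binomial intervals, for the 50 proteasome genes, reference sets and other gene families. The Etv4 share of the proteasome genes is 30% (17.9 to 44.6%), with 24 of the 50 CpG-rich. It sits above the 17.9% of all genes, which its interval reaches, and close to the 30.3% of CpG-rich genes. The ribosomal protein genes are higher, at 67.4%.

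The Etv4 share was set beside that of other families of housekeeping genes, chosen by symbol. It was 62 of 92 (67.4%, 56.8 to 76.8%) for cytosolic ribosomal protein genes, 28 of 62 (45.2%, 32.5 to 58.3%) for translation initiation and elongation factors and 33 of 90 (36.7%, 26.8 to 47.5%) for the respiratory chain and ATP synthase. The interval of the proteasome genes lay wholly below that of the ribosomal protein genes and overlapped those of the other families, and the differences were not tested. Over CpG-rich promoters alone the shares were 37.5% for the proteasome genes, 79.7% for ribosomal protein genes, 52.3% for translation factors and 45.5% for the respiratory chain. Members with an Etv4 region near a start also had an Etv5 region there in 2 of 15 cases (13.3%, 1.66 to 40.5%), against 36.1% of all genes with an Etv4 region and 35.3% of those with a CpG-rich promoter. The same share was 18.2% for the respiratory chain, 22.6% for ribosomal protein genes and 35.7% for translation factors, and all of these lay within the interval of the members. Taken from the Etv5 side, 2 of the 4 members (50%) had an Etv4 region, against 61.1% of all genes.

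The counts by subcomplex each rest on few genes, their intervals overlap, and no difference between them was tested. Set against the 17.9% of all genes with an Etv4 region near a start, the subcomplexes of more than 1 gene ran from 0 of 6 activators and inhibitors (0 to 45.9%) to 4 of 7 genes of the constitutive beta ring (57.1%, 18.4 to 90.1%). The interval held the share of all genes in each of them except the beta ring, where it began just above. All 4 Etv5 regions were at genes of the 20S core or at the chaperone gene Psmg1, and none was at the 17 genes of the 19S base and lid, a count whose exact interval reached 19.5% and so held the 10.6% of all genes. Over the constitutive genes of the 20S core and 19S particle the Etv4 count was 11 of 31 (35.5%, 19.2 to 54.6%), against 17.9% of all genes and 30.3% of CpG-rich genes.

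**Figure D2:**
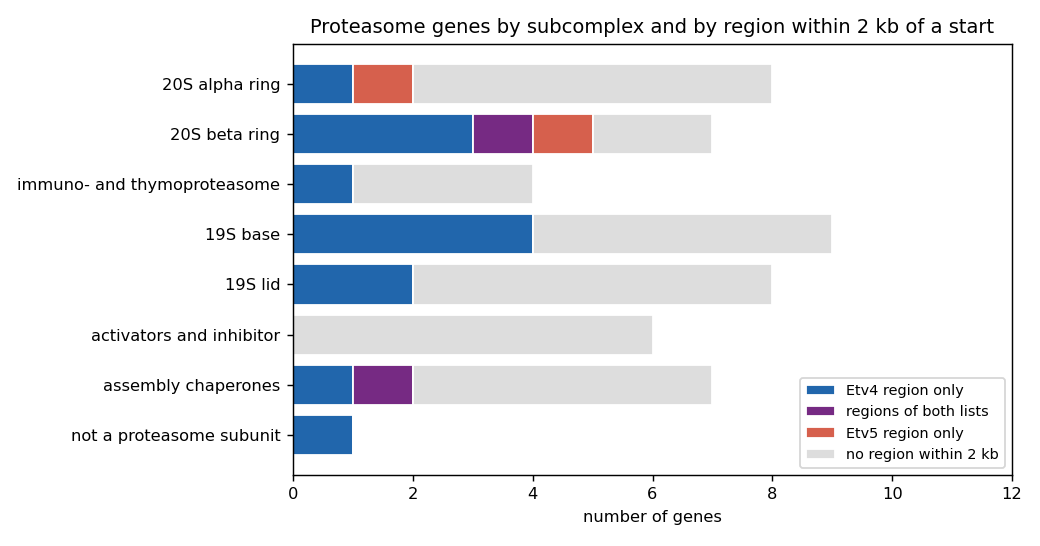
Bars count the members of each subcomplex by the lists with a region within 2 kb of a start: Etv4 only, both, Etv5 only or none. The beta ring has 5 of its 7 genes with a region (29 to 96.3%) and the activators and inhibitor none of 6 (0 to 45.9%), intervals that overlap, against 22% of all protein-coding genes.

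In the alpha ring, 1 of 8 genes had an Etv4 region near a start (12.5%, 0.316 to 52.7%) and 1 had an Etv5 region, near the 17.9 and 10.6% of all genes. The Etv4 region at Psma6 spanned chr12:55398289-55398955, was 667 bp long and covered the representative start, with its midpoint 153 bp upstream, and it held the site printed above. At Psma3 an Etv5 region (chr12:70974928-70975526) lay wholly downstream of the nearest start, with its midpoint 508 bp from it in an intron, and its central 500 bp held an AP-1 pattern (TGACTCA or TGAGTCA). Psma1, Psma2, Psma4, Psma5, Psma7 and Psma8 had none. The nearest Etv4 region was 9.35 kb from the Psma7 start and 148 kb from that of Psma4.

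Of the 7 constitutive beta genes, 4 had an Etv4 region near a start (57.1%, against 17.9% of all genes), namely Psmb3, Psmb4, Psmb6 and Psmb7, and 2 had an Etv5 region (28.6%, 3.67 to 71%, against 10.6%), Psmb1 and Psmb6. Psmb6 and Psmb7 encode catalytic subunits with caspase-like and trypsin-like activity, and the gene of the remaining catalytic subunit, the chymotrypsin-like Psmb5, had its nearest Etv4 region 23.6 kb away. At Psmb6 the Etv4 region (chr11:70525342-70525709, 368 bp) and the Etv5 region (chr11:70525045-70525575, 531 bp) both spanned the start, shared 234 bp and had midpoints 215 bp apart. The Etv4 midpoint was 140 bp downstream of its nearest annotated start, and the Etv5 midpoint was 57 bp upstream of a different annotated start. Psmb7 had an Etv4 region at its start (chr2:38643526-38644123), with the ETS site printed above and an AP-1 pattern in its centre. It also carried regions deep in an intron: Etv4 regions with midpoints 24429 and 22238 bp from the nearest start, and an Etv5 region of 670 bp that lay wholly inside the second of these, a region of 928 bp. Psmb7 is the member with an Etv5 region in the body only.

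Among the structural beta genes, the Etv4 region at Psmb3 (chr11:97703198-97703768) had its midpoint 49 bp downstream and that at Psmb4 (chr3:94886910-94887397) 193 bp upstream, and both spanned a start. The Etv5 region at Psmb1 (chr17:15497975-15498534) had its midpoint 43 bp downstream of the start. The nearest Etv4 region to Psmb1 was 12.3 kb away. Psmb2 had no region near a start or in its body, and the nearest were 76.2 kb (Etv4) and 75.8 kb (Etv5) away.

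Of the genes for the inducible and thymic beta subunits, 1 of 4 had an Etv4 region (25%, 0.631 to 80.6%, against 17.9% of all genes). This was Psmb10, an immunoproteasome subunit, whose region of 805 bp (chr8:105936894-105937698) had its midpoint 258 bp upstream of an annotated start inside the gene and 1148 bp downstream of the representative start, which it did not span. Psmb8 and Psmb9, the other immunoproteasome genes, and Psmb11, the thymoproteasome gene, had none, and their nearest Etv4 regions were 62.4, 52.4 and 16.3 kb away.

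In the 19S base, 4 of 9 genes had an Etv4 region near a start (44.4%, 13.7 to 78.8%) and none an Etv5 region (0 to 33.6%). These intervals hold the 17.9 and 10.6% of all genes. The 3 non-ATPase genes all had an Etv4 region across a start. Of the 6 ATPase genes, 1 had an Etv4 region within 2 kb (16.7%, 0.421 to 64.1%), close to the 17.9% of all genes. For 3 of 3 genes the exact interval ran from 29.2 to 100%, it overlapped that of the ATPase genes, and the difference was not tested. Psmd1, which encodes a scaffold of the base, had the longest region among the members, 1071 bp (chr1:86064011-86065081), with its midpoint 73 bp upstream of the start. At Psmd2, the other scaffold, the midpoint of the region (chr16:20651413-20652010) was 4 bp upstream of the nearest start. At Psmd4, the ubiquitin receptor, it was 17 bp upstream (chr3:95042447-95042814). The ATPase gene was Psmc2, and its region (chr5:21786519-21786945) did not reach the start: the midpoint was 1449 bp downstream, in an exon, and the site printed above was 1439 bases downstream. The ATPase gene Psmc3 had an Etv4 region in its body only (chr2:91060940-91061498), 3110 bp from the nearest start and 7210 bp from the representative start. Psmc1, Psmc4, Psmc5 and Psmc6 had none.

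In the lid, 2 of 8 genes had an Etv4 region (25%, 3.19 to 65.1%) and none an Etv5 region (0 to 36.9%), intervals that hold the 17.9 and 10.6% of all genes. Psmd12, a structural lid subunit, had a region of 972 bp (chr11:107479010-107479981) with its midpoint 12 bp downstream of the start, and it held an ETS and an AP-1 pattern in its central 500 bp. Psmd7, the partner of the deubiquitinase Psmd14, had the shortest Etv4 region, 311 bp (chr8:107588267-107588577), 36 bp downstream of the nearest start. Psmd14 itself had its nearest Etv4 region 402 kb away. Psmd3, Psmd6, Psmd8, Psmd11 and Psmd13 also had none.

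Among the assembly chaperones, 2 of 7 genes had an Etv4 region (28.6%, 3.67 to 71%, against 17.9% of all genes), Psmg1 and Psmg2, whose products form a dimer that guides alpha-ring assembly. At Psmg1 the Etv4 region of 828 bp (chr16:95990682-95991509) contained the whole of an Etv5 region of 335 bp (chr16:95990790-95991124), and the midpoints were 138 bp apart. The Psmg2 region of 984 bp (chr18:67641021-67642004) had its midpoint 86 bp upstream of the start and 177 bp from the start of Cep76, a divergent gene, and so is shared between them. Psmg3, Psmg4 and the 19S chaperones Psmd5, Psmd9 and Psmd10 had none, and the nearest Etv4 region to Psmd10 was 967 kb away. The activators Psme1, Psme2, Psme2b, Psme3 and Psme4 and the inhibitor Psmf1 had no region, a count of 0 of 6 whose exact interval reached 45.9% and held the 17.9 and 10.6% of all genes. At Psmc3ip the Etv4 region (chr11:101095396-101095879) had its midpoint 202 bp upstream of the start, and without this gene the Etv4 count was 14 of 49 members.

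The Etv4 regions near member starts lay close to the start. Of 15 regions, 14 (93.3%) spanned an annotated start, compared with 64.5% of the 4130 Etv4 regions near starts of all genes and 64.9% of those at CpG-rich promoters. Their median distance from midpoint to start was 95 bp, against 159 and 153 bp. Within 500 bp lay 14 of 15 midpoints (93.3%), against 74.7 and 76%. A gene with several starts has more chances of being spanned, and 47 of the 50 members had more than 1. The corresponding count over all genes was not made, and the part of several starts in the spanning share was not tested. For the representative start alone the spanning counts were 13 of 15 (86.7%) against 48.7% of all. The median length was 598 bp against 568 bp, and no midpoint was nearer to the start of another protein-coding gene. The number in the deposited name of each region, whose meaning is not stated in the sources used here, had a median at 53.4% of the list against 54.3% for all. The Psmd1, Psmd12 and Psmg2 regions, at 1.3, 1.6 and 2.3% of the list, were the only ones in its first 10%.

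**Figure D3:**
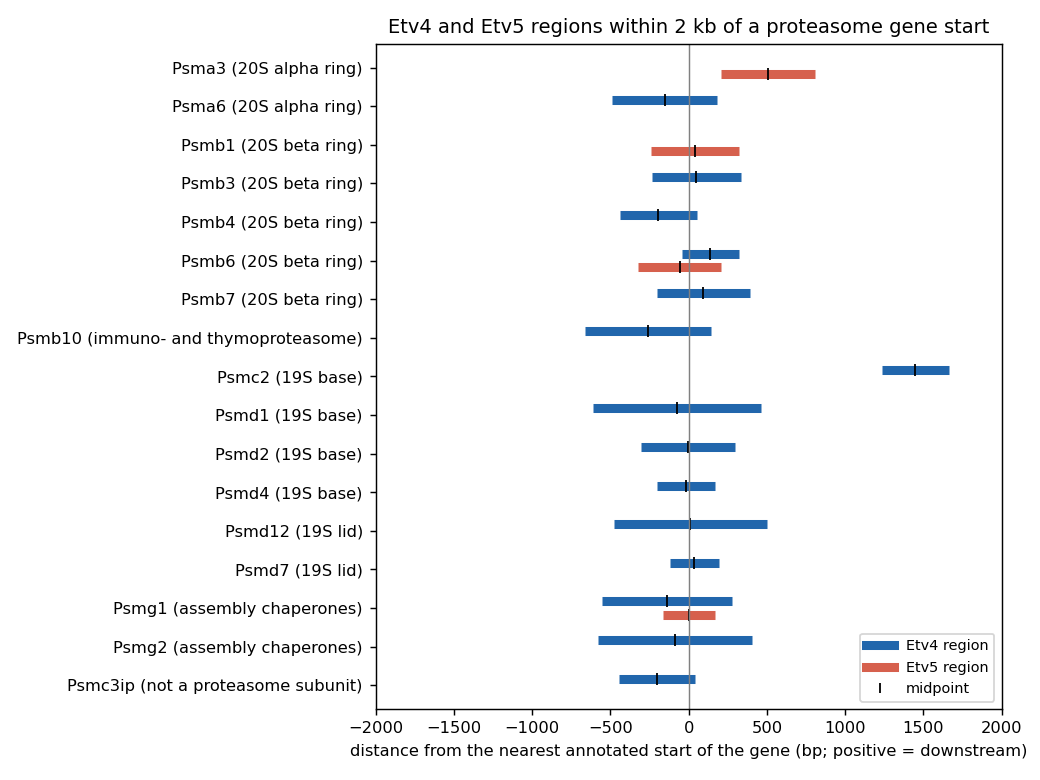
Each bar is a region with its midpoint within 2 kb of a start, drawn by its length around its midpoint, against distance in bp from the nearest annotated start of the gene (positive is downstream), with Etv4 in blue and Etv5 in red. All Etv4 bars except that of Psmc2, at 1449 bp, cross the start, and the Psma3 Etv5 bar begins downstream of it.

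Patterns were counted in the 500 bp centred on each region, a window that reaches past the ends of a shorter region. The ETS pattern was in this window for 4 of 15 Etv4 regions (26.7%) against 14.2% of Etv4 regions near all starts. The AP-1 pattern was also in 4 windows (26.7%), at Psmb7, Psmd2, Psmd7 and Psmd12, against 16.5%, and at Psmd7, whose region is 311 bp long, the match lay outside the region itself. Psmb7 and Psmd12 held both. None of the 4 Etv5 regions held the ETS pattern, against 10.7% of those near all starts. All these counts rest on few regions, and no difference was tested.

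The promoter window held the ETS pattern in 9 of 50 members (18%), against 8.15% of all genes and 9.98% of CpG-rich genes. The shorter core GGAAGT was in 24 members (48%) against 24.8% of all. Other families had similar or lower shares: 19.6% (core 45.7%) for ribosomal protein genes, 17.7% (41.9%) for translation factors and 11.1% (27.8%) for the respiratory chain. The pattern written backwards, TGAAGGCC or TGAAGGAC, was in 1 (2%) against 1.86%. Of the other patterns searched on either strand, AAGATGGC, for the factor YY1, was in 6 members (12%) against 3.09%, and GCATGCGC, for nuclear respiratory factor NRF1, in 4 (8%) against 3.73%. CpG-rich genes held them in 4.86 and 5.99% and respiratory chain genes in 10% each. The ARE (TGACNNNGC), through which the factor encoded by Nfe2l1 raises proteasome genes, was in 7 (14%) against 12.8%. CCAAT was in 18 (36%) against 38.4%, the GC box GGGCGG in 30 (60%) against 45.5%, and AP-1 in 1 (2%) against 4.51%. These matches are descriptions of letters and not of binding, and no difference between the shares was tested.

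**Figure D4:**
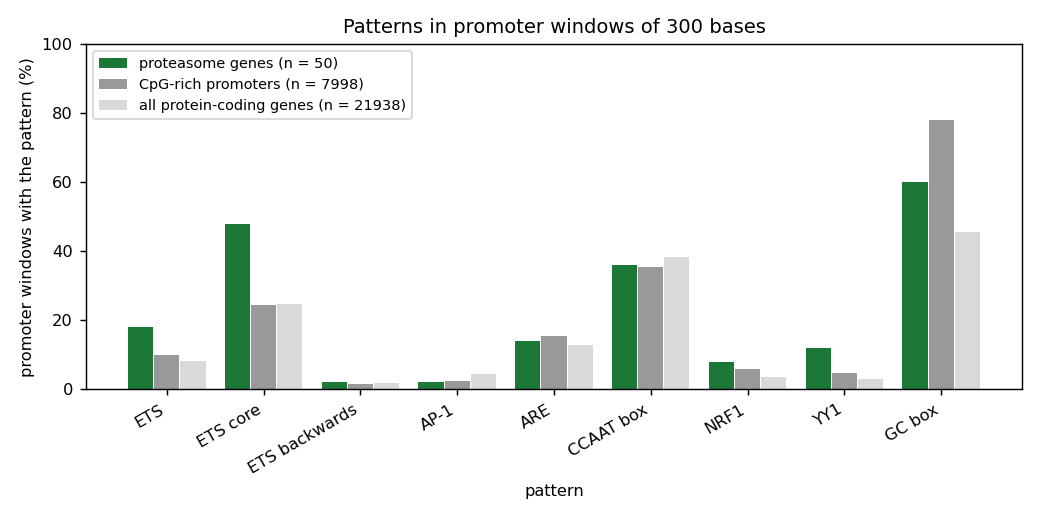
Bars give the percent of promoter windows of 300 bases that held each pattern on either strand, for the proteasome genes, CpG-rich promoters and all protein-coding genes. The ETS pattern (18% of members, 8.15% of all genes) and its core (48% and 24.8%) were more frequent in the members than in all genes. Ribosomal protein genes, not drawn, held them in 19.6 and 45.7%. The GC box (60%) lay below the 77.9% of CpG-rich promoters.

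Of the 9 members with the ETS pattern, 2, Psmc2 and Psmd12, had an Etv4 region near a start (22.2%, 2.81 to 60%), against 13 of the 41 members without it (31.7%, 18.1 to 48.1%). These intervals overlap, the counts rest on few genes, and the difference was not tested. Over all genes an Etv4 region was near the start of 27.7% of those holding the pattern and 17% of those without it. Psmd12 was the only member whose promoter-window site lay inside an Etv4 region, because the Psmc2 region began downstream of its window. The sites of the members lay mostly close to the start. Counted from 1 at the start base, the first base of the site was at 1 in Psma1, 2 in Psme3, −4 in Psme4, −5 in Psmg3, −6 in Psmd6, 20 in Psmc1, 27 in Psmd12, −33 in Psma8 and −93 in Psmc2. Within 40 bases of the start lay 8 of 9 sites (88.9%), against 48.9% over all genes and 52.9% over CpG-rich genes, a limit chosen after the positions were seen. For the core GGAAGT it was 17 of 27 sites (63%) against 37.8%.

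**Figure D5:**
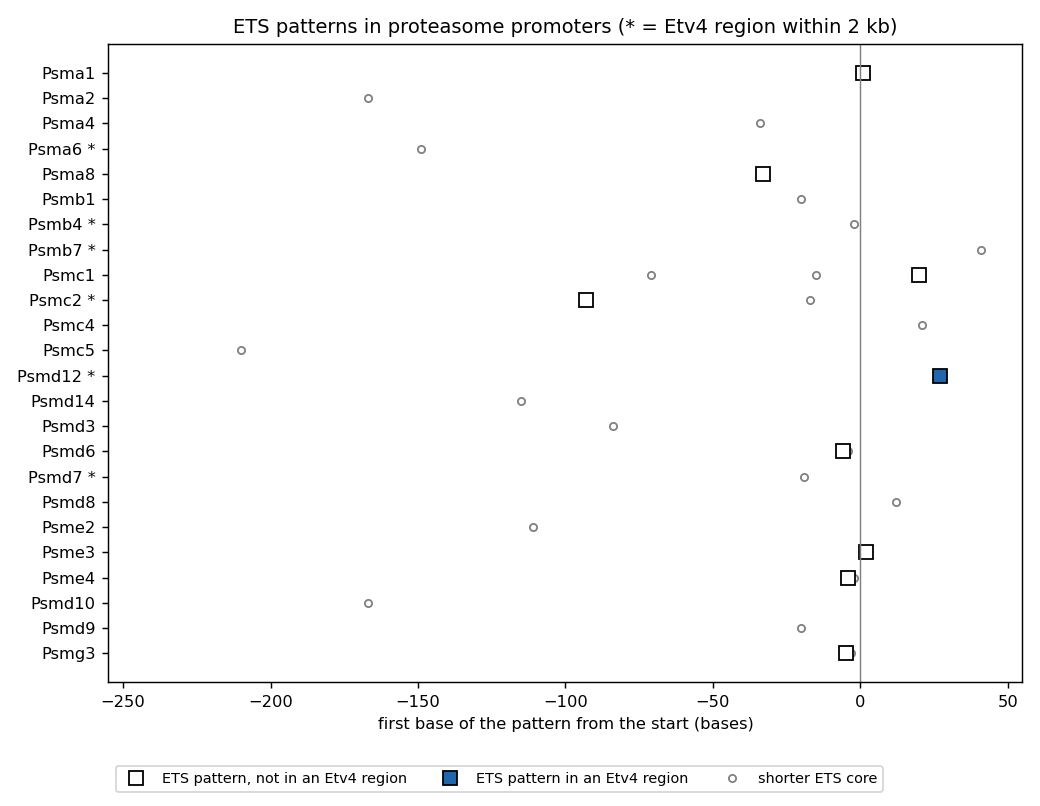
Squares mark the first base of the ETS pattern and circles that of the shorter core, in bases from the start (a core within the longer pattern lies under its square), for the 24 members holding the core, and an asterisk marks an Etv4 region within 2 kb of a start. Of 9 squares, 8 lie within 40 bases of the start, and the filled square of Psmd12 is the one inside an Etv4 region.

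Over all 50 members the median distance from the representative start to the nearest Etv4 region was 32.7 kb, against 60.4 kb for all genes and 33.5 kb for CpG-rich genes. The nearest Etv5 region was at a median of 69 kb, against 94.1 and 64.6 kb. For the 32 members with no region the Etv4 distance ran from 9.35 to 967 kb, with a median of 57.9 kb, against 107 kb over all genes with no region and 80.4 kb over CpG-rich ones. Beyond 50 kb lay 20 of them (62.5%), against 69.7 and 64.4%. Of 9 members with the start of a divergent gene within 1000 bp upstream, 2 (Psmc2 and Psmg2) had an Etv4 region near a start (22.2%, 2.81 to 60%) and none an Etv5 region (0 to 33.6%), intervals that hold the 17.9 and 10.6% of all genes.

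The proteasome also has subunits and assembly factors under other names, and 8 such genes of a hand-written list were matched. An Etv4 region was near a start in 3 of the 8 (37.5%, 8.52 to 75.5%) and an Etv5 region in 1 (12.5%, 0.316 to 52.7%), intervals that hold the 17.9 and 10.6% of all genes, and 7 of the 8 had a CpG-rich promoter. The 3 genes were Adrm1, a ubiquitin receptor, with its region 113 bp upstream of the start, Uchl5, its partner deubiquitinase, also at 113 bp upstream, and Txnl1, a proteasome-bound thioredoxin, at 23 bp downstream. Of 11 genes listed for substrate shuttling and transcription of proteasome genes, 7 had an Etv4 region near a start (63.6%, 30.8 to 89.1%). An Etv5 region was near 3 of them (27.3%, 6.02 to 61%). The shares were 17.9 and 10.6% over all genes and 30.3 and 17.2% over CpG-rich genes, and 9 of the 11 were CpG-rich. Of 4 ubiquitin genes, 2 had an Etv4 region and 2 an Etv5 region (50%, 6.76 to 93.2% for each). These genes were picked by hand, and no difference was tested. The shuttles Rad23b and Ubqln1 had Etv4 regions 309 and 359 bp upstream, and Nfe2l1, the transcription factor of the proteasome recovery response, had an Etv4 region 99 bp upstream. Ubqln4, Vcp, Akirin2 and Zfand5 had an Etv4 region near a start as well, and Ubqln1 also had an Etv5 region. Nfe2l1 also had 2 Etv5 regions, and the related Nfe2l2 had an Etv5 region 871 bp downstream with no Etv4 region near a start. Ubb and Rps27a, which encode ubiquitin, had regions of both lists near a start, and the ubiquitin-activating enzymes Uba1 and Uba6, the shuttle Ubqln2, and Ddi2 and Ngly1, which process the Nfe2l1 product, had none.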

How the data were processed

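The authors made the libraries by ChIP with an antibody to Etv4 or Etv5. The reads were aligned with Bowtie to the mm10 build according to the submitters' processing notes. Peaks were called with CisGenome in each library by itself, without an input. The deposited lists give chromosome, start, end, a name and a score, and the score is 1000 throughout. A region was near a gene when its midpoint was within 2 kb of any annotated start (GENCODE M21), and in the body when it lay elsewhere in the gene. Counts of genes were set beside those of all 21938 protein-coding genes, with exact (Clopper-Pearson) 95% intervals. With 1 library per antibody no test was made. Members, lists and comparisons were chosen with earlier results of these data known, although the symbol rule itself used no measured value. Every member with a region was described, and members without were named by subcomplex. Genes of the pathway came from a list written by hand, of which some are not reported here, and divergent genes and positions within 40 bases were singled out after their values were seen. Patterns were searched in the RefSeq genome sequence of the same build (GRCm38), in 300-base windows around representative starts. Region coordinates are 1-based. The scripts ran in Python 3.11.15 with pandas 2.3.3, numpy 2.4.6, scipy 1.17.1, numba 0.67.0 and matplotlib 3.10.9. Tested on simulated data, they assigned 200 of 200 planted regions and found 200 of 200 planted sites. The alternatives changed the distance, the starts, the regions used and the pattern.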

Additional observations from a re-analysis of the deposited data

How the results depend on the processing

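Under the 11 alternatives for assigning regions, the Etv4 ratio of members to all genes ran from 1.59 to 1.93 and the Etv5 ratio from 0.601 to 0.916, all within the intervals of the main values. Of 73 recomputed values, 60 were the same as the main value within its error or within 1.5 times, and 13 moved. The longer 50% of each list left 8 members with an Etv4 region near a start, 2 with an Etv5 region, 0 with both and 0 with Etv4 in the body only. The first 50% by number left 7, 2 and 0 for Etv4, Etv5 and both, and taking equal numbers of the longest regions left 9 with Etv4 and 1 with both. These settings use fewer regions by construction, and the share over all genes fell as well, to 8.81, 8.74 and 10.8% for Etv4. The members with Etv4 in the body only became 0 with a distance of 5 kb, which moved Psmc3 to the near group and added Psma7, and 2 with the 5-prime end of the gene as the only start, which moved Psma6 to the body. A distance of 500 bp or 1 kb lost Psmc2 from the Etv4 count, and 500 bp also lost Psma3 from the Etv5 count. The ETS count of 9 became 24 with the core GGAAGT and 14 in a window of 500 bases on each side of the start, where the shares of all genes were 24.8 and 14.2%. No paired analysis was possible because the design holds 1 library for each factor and so no replicates to pair. Depth and binding strength are unknown, so the lists cannot say how weak a site went unlisted or how weak a listed site was. No input library was analysed here, so enrichment shared by any antibody cannot be told apart from binding of the factor.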
